A study of Mus musculus with 11 samples.

Results

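The autophagy machinery was followed as 44 listed genes, from the kinases that start an autophagosome to the SNARE proteins that fuse it with a lysosome. Rows were taken by gene symbol, and 43 of the 44 were found among the 54164 genes of the table, while Epg5 was not analysed here. RNA was sequenced from peritoneal neutrophils (PMNs) of FOXO3 KO mice (6 libraries) and of WT mice (5 libraries), 1 library per mouse. All mice were on the C57BL/6 background, male and female, aged 6 to 8 weeks, and all received 2 casein injections into the peritoneum on successive days, with PMNs harvested 3 hours after the second. The FOXO3 KO mice lacked FOXO3 in the whole body and not in PMNs alone, so the comparison is not restricted to what the loss does inside a PMN. Expression was given as TPM, a transcript level corrected for transcript length and library size.

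Autophagy wraps cytoplasm, organelles or microbes in a double membrane and delivers them to lysosomes. The ULK kinase complex starts the process, the PI3-kinase complex built on Beclin 1 marks the membrane with a lipid, and WIPI, ATG2 and ATG9 proteins bring in more membrane. ATG7, ATG3, ATG10 and the ATG12-ATG5-ATG16L1 complex then attach LC3 and GABARAP proteins, the mammalian ATG8 family, to that membrane, where cargo receptors such as p62 dock. In neutrophils autophagy is known for its part in maturation, granule release and the breakdown of lipid stores. FOXO3 is a transcription factor that was described in mouse muscle as an activator of several of these genes.

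The promoter letters of the members are shown first, since FOXO3 acts on genes by binding DNA. RefSeq windows on GRCm38.p6, reaching 250 bases before and 50 after each start, were matched by symbol for 36 of the 44 members, which gave 40 windows of 300 bases. The FOXO core GTAAACA, searched on both strands, occurred in 0 of the 40 windows, against 3.65% of 32851 windows over all genes. The E-box CACGTG reads the same on both strands and is the core of sites for MiT/TFE factors. It occurred in 5 of the 40 windows, each of a different member, against 7.15% of all windows. The longer TCACGTGA, which contains that E-box, occurred in the Atg3 window alone, against 0.974% of all windows. A match is only a run of letters, and an absent match says nothing of FOXO3 outside these windows. The 6 E-boxes are printed 5′ to 3′ on the strand of the gene with 12 bases on either side, the E-box in capitals, to show how they differ in their flanks.
Atg14, chr14:47568418-47568447, minus strand: aaaacaaaatccCACGTGactggccctgag
Atg3, chr16:45158723-45158752, plus strand: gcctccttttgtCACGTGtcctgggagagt
Atg3, chr16:45158746-45158775, plus strand: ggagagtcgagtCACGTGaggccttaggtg
Atg5, chr10:44268313-44268342, plus strand: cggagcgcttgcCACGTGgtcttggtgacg
Atg7, chr6:114670952-114670981, plus strand: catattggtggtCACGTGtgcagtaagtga
Bnip3, chr7:138909597-138909626, minus strand: gcgcacgcgccgCACGTGccacacgctccc
The E-boxes of Atg3 began 94 and 71 bases before the start, that of Atg7 132 bases and that of Bnip3 108 bases before it, while those of Atg5 and Atg14 began 14 bases and 1 base before it. The second E-box of Atg3 is the one with the longer palindrome. The RefSeq starts used for Atg7 and Atg14 lie inside the longer spans that GENCODE gives these genes.

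The library columns carried 2 kinds of number, which the labels do not explain. The two-digit numbers were 05, 06 and 09 for FOXO3 KO and 03 and 08 for WT, and the single-digit numbers were 1, 2 and 3 for each genotype. The 2 numbering series stood apart across all genes, so the genotypes are also compared within each series. Fold changes within a series are printed for some members only. Column totals were 935140 to 952238 TPM. Counts per library were not used here, so the depth behind each TPM value is unknown. Summed PMN markers, such as the calprotectin subunit S100a8, were high in every library, at 114280 to 204292 TPM in FOXO3 KO and 132037 to 269288 TPM in WT, and the sum was far above that of any other marker list. Summed B cell markers were 1131 to 5045 TPM in two-digit and 68.2 to 540 TPM in single-digit libraries. In such bulk samples fewer cells of a type and less RNA per cell cannot be told apart.

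Foxo3, on chromosome 10 from 42181841 to 42276755 (GRCm38, GENCODE M21, minus strand), was read first as a check of the labels. Values are listed for libraries 05, 06, 09, 1, 2 and 3 of FOXO3 KO and for libraries 03, 08, 1, 2 and 3 of WT, here and throughout. Foxo3 had 3.68, 4.27, 0.84, 1.68, 2.18 and 2.00 TPM in FOXO3 KO libraries and 11.7, 7.63, 10.3, 7.61 and 9.30 TPM in WT libraries. Every FOXO3 KO library lay below the lowest WT library, as the genotype labels require. The log2 fold change of TPM + 1, FOXO3 KO over WT, was -1.65 ± 0.26 (SE), with an exact two-sided permutation p of 0.0022, the smallest that 462 splits into 6 and 5 can give. Its limma FDR over all genes tested was 0.49. The targeted gene itself thus missed the threshold of FDR < 0.05 in this test, which bears on every count of called genes that follows.

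All 43 members had a mean over the 11 libraries of at least 1 TPM, so all passed the filter on low values and were tested. There were 8 members at 100 TPM or more, 23 between 10 and 100 TPM and 12 between 1 and 10 TPM. Gabarap (1050 TPM, above 99.1% of the genes tested) and Sqstm1 (777 TPM, above 98.5%) were the highest, followed by Map1lc3b (220 TPM), Vamp8 (170 TPM), Bnip3 (135 TPM), Bnip3l (133 TPM), Tax1bp1 (128 TPM) and Becn1 (112 TPM). The lowest was Atg10 (1.42 TPM), which encodes the enzyme that joins ATG12 to ATG5. Together the 43 members summed to 2920 to 3949 TPM in FOXO3 KO and 3110 to 3978 TPM in WT libraries, or 0.308% to 0.422% and 0.330% to 0.425% of the column totals.

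**Figure D1:**
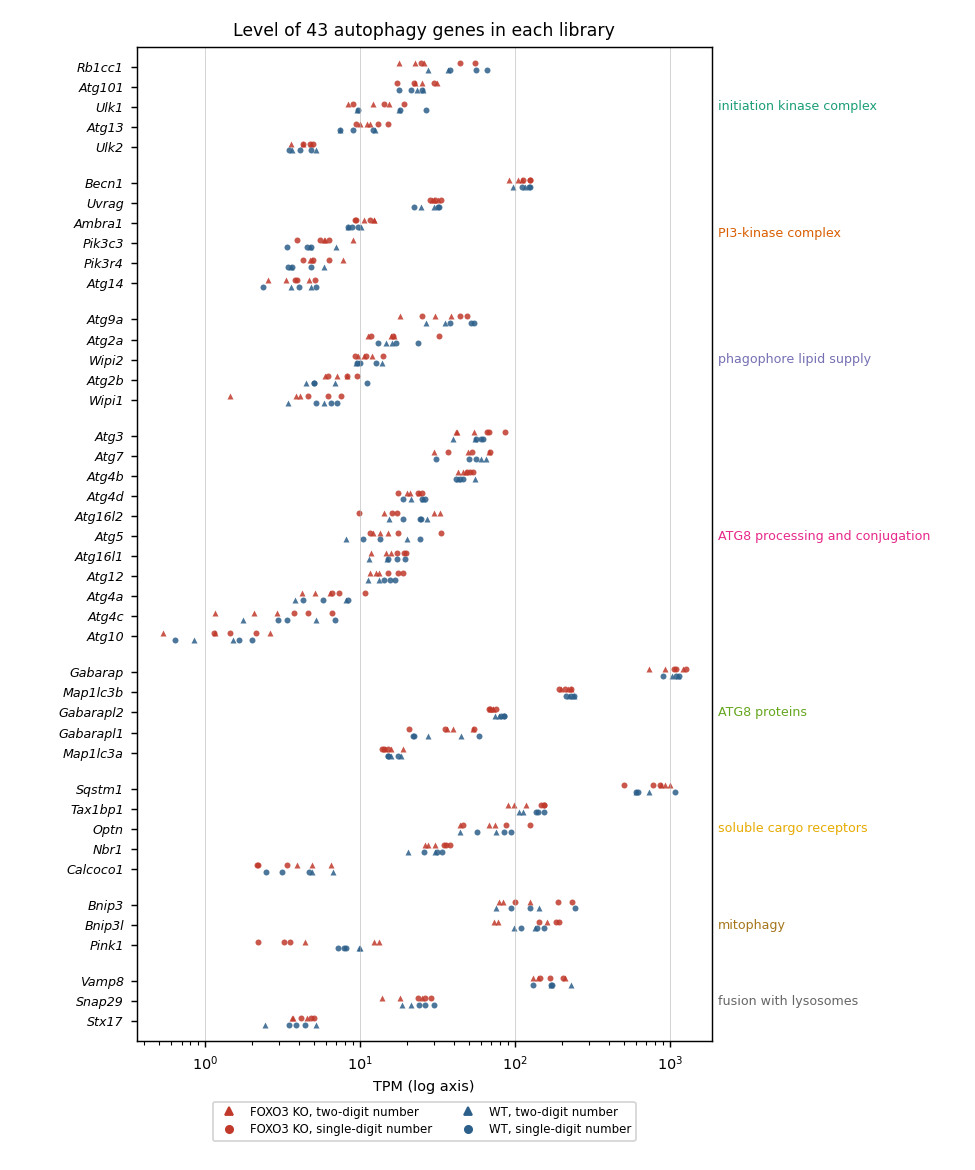
TPM of each of the 43 members (log axis) in each of the 11 libraries, by role, with FOXO3 KO in red and WT in blue, triangles for two-digit and circles for single-digit libraries. Levels span from Atg10, with a mean of 1.42 TPM, to Gabarap, with a mean of 1050 TPM, and red and blue points overlap in every row.

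Members differed in how far they varied between libraries. Map1lc3b and Gabarapl2 were the steadiest, with the highest library at 1.24 and 1.25 times the lowest. Pink1 (5.99 times), Atg4c (5.97 times), Wipi1 (5.17 times) and Atg10 (4.97 times) spread the most, all 4 at means under 10 TPM. The authors' mean normalized counts, averaged over libraries, were 362 for Pink1, 207 for Atg4c, 228 for Wipi1 and 37.0 for Atg10. The depth of each library is unknown, and the part of counting error in the spread of these low genes was not tested.

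The comparison of FOXO3 KO with WT asks which autophagy transcripts differ in PMNs of mice that lack FOXO3. A gene was called at FDR < 0.05 with a log2 fold change over 0.5 in either direction. By this rule limma called 0 of the 43 members, against 0 of 12195 genes tested (0%). At an unadjusted p under 0.05 it named 0 members, against 257 of all genes (2.11%). The exact permutation test, unadjusted, put 2 of 43 members under 0.05, against 322 of all genes (2.64%). The members' FDR ran between 0.990 and 1.00, and the smallest FDR over all genes was 0.49.

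Sizes were small as well as uncalled. The members' log2 fold changes were positive for 22 and negative for 21, or for 15 and 28 after quantile normalization, with a median of 0.002 and a range of -0.59 to 0.31. Over all genes tested 8363 of 12195 were positive and the median was 0.11, which quantile normalization moved by -0.10 to 0.01. Only Pink1 and Rb1cc1 passed 0.5 in size, as did 1082 of all genes. The 95% interval of the fold change lay within -1 and 1 for 41 of 43 members and within -0.5 and 0.5 for 16. Changes larger than 1 on the log2 scale thus lay outside the interval of most members. Changes larger than 0.5 in either direction lay outside it for those 16 only.

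**Figure D2:**
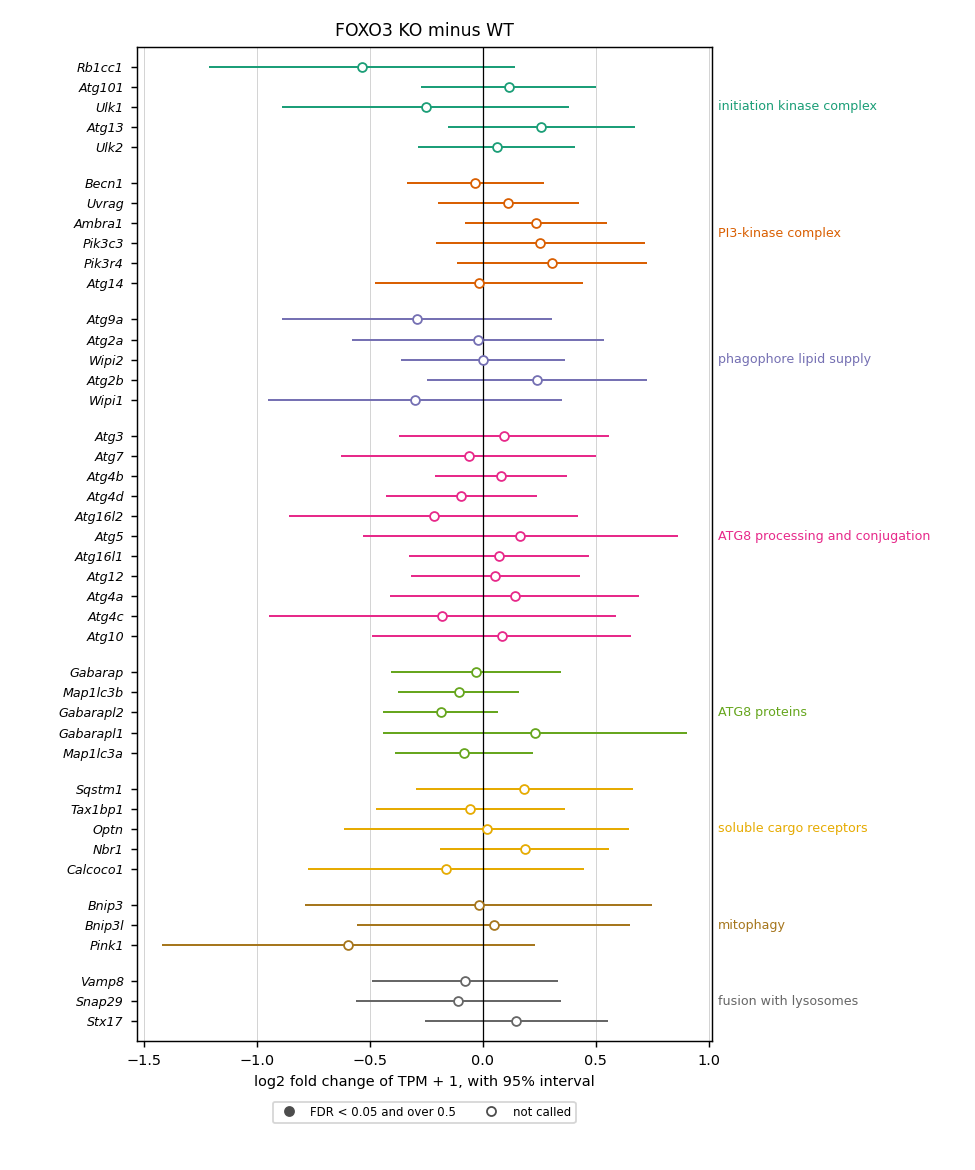
Log2 fold change of TPM + 1, FOXO3 KO minus WT, for each member with its 95% interval (limma, 11 libraries), by role. Every interval crosses 0, and the points run from -0.59 for Pink1 to 0.31 for Pik3r4.

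Among the initiation kinases, 3 members had a positive and 2 a negative fold change (median 0.06), or 2 and 3 after quantile normalization. Rb1cc1, which encodes the scaffold FIP200, had 17.7, 25.6, 22.6, 24.7, 43.7 and 54.8 TPM in FOXO3 KO libraries and 37.0, 27.3, 38.2, 65.4 and 55.5 TPM in WT libraries. It averaged 31.5 ± 14.5 TPM in FOXO3 KO and 44.7 ± 15.4 TPM in WT (SD, n = 6 and 5), and its log2 fold change of -0.53 ± 0.31 (SE) gave an exact permutation p of 0.15. The groups overlapped over all libraries, and 4 of the 6 FOXO3 KO libraries lay below every WT library. Atg13, the regulatory subunit of the complex, had 9.89, 11.5, 11, 15.0, 13.0 and 9.38 TPM in FOXO3 KO libraries and 12.4, 7.41, 12.1, 8.93 and 7.42 TPM in WT libraries, a log2 fold change of 0.26 ± 0.19 (SE). After quantile normalization this fold change was 0.11. The ranges of Atg13 overlapped, and 3 WT libraries were below all of FOXO3 KO. Atg101, which holds ATG13 in the complex, had 22.6, 24.8, 31.1, 30.0, 22.3 and 17.3 TPM in FOXO3 KO libraries and 25.2, 23.3, 24.8, 21.3 and 17.9 TPM in WT libraries. The kinase Ulk1 averaged 13.0 ± 4.03 TPM in FOXO3 KO and 16.2 ± 7.06 TPM in WT, with its highest library in WT.

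In the PI3-kinase complex 4 members had a positive and 2 a negative fold change (median 0.17), and the split was the same after quantile normalization (median 0.06). Ambra1, a scaffold that regulates Beclin 1, had 10.5, 12.2, 12.2, 9.27, 11.6 and 9.41 TPM in FOXO3 KO libraries and 10.1, 8.34, 9.63, 8.86 and 8.35 TPM in WT libraries. Its log2 fold change was 0.23 ± 0.14 (SE) with an exact permutation p of 0.032 and a limma FDR of 0.99, and the groups overlapped. After quantile normalization, which the permutation test did not use, the log2 fold change of Ambra1 was 0.095. Pik3r4 (VPS15) and Pik3c3 (VPS34) encode the regulatory and the lipid kinase subunit. Pik3r4 had 7.75, 4.88, 4.70, 6.24, 4.24 and 4.95 TPM in FOXO3 KO libraries and 5.79, 3.55, 4.77, 3.39 and 3.62 TPM in WT libraries, a log2 fold change of 0.31 ± 0.19 (SE). Pik3c3 had 8.90, 5.87, 5.80, 6.30, 5.47 and 3.88 TPM in FOXO3 KO libraries and 7.0, 4.73, 4.80, 4.52 and 3.36 TPM in WT libraries, a log2 fold change of 0.25 ± 0.21 (SE). After quantile normalization these fold changes were 0.15 for Pik3r4 and 0.099 for Pik3c3. Both genes had their highest library in FOXO3 KO 05 and their highest WT library in WT 03, and both sets of ranges overlapped. Becn1, which encodes Beclin 1, had 104, 109.9, 91.1, 113, 125 and 125 TPM in FOXO3 KO libraries and 115, 96.8, 110.4, 122 and 124 TPM in WT libraries. Its groups lay almost on top of each other, with a log2 fold change of -0.03 (95% interval -0.33 to 0.27).

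The lipid supply genes had 2 positive and 3 negative fold changes (median -0.02), or 1 and 4 after quantile normalization. Atg9a, which encodes the lipid scramblase of the vesicles that seed the membrane, had 18.0, 38.6, 30.4, 25.0, 43.9 and 49.0 TPM in FOXO3 KO libraries and 26.7, 35.2, 37.7, 52.0 and 53.9 TPM in WT libraries. Wipi1, a reader of the lipid that the PI3-kinase makes, had 1.44, 3.84, 4.09, 7.46, 6.17 and 4.56 TPM in FOXO3 KO libraries and 5.78, 3.43, 7.03, 5.16 and 6.43 TPM in WT libraries. Both overlapped widely, with log2 fold changes of -0.29 ± 0.27 for Atg9a and -0.30 ± 0.30 for Wipi1 (SE). FOXO3 KO 05 was the lowest library of both, and without it the log2 fold changes were -0.13 for Atg9a and -0.082 for Wipi1. Within the single-digit series Wipi1 had a log2 fold change of -0.041. The lipid transfer genes Atg2a and Atg2b averaged 17.3 ± 7.59 and 7.52 ± 1.39 TPM in FOXO3 KO and 16.8 ± 4.07 and 6.46 ± 2.68 TPM in WT.

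The 11 genes that process and attach ATG8 proteins had 7 positive and 4 negative fold changes, or 4 and 7 after quantile normalization, with a median of 0.07 and a range of -0.22 to 0.16. Atg3, which encodes the enzyme that hands ATG8 to the lipid, had 41.6, 42.1, 54.5, 85.8, 65.7 and 67.5 TPM in FOXO3 KO libraries and 55.3, 39.4, 61.5, 60.2 and 56.1 TPM in WT libraries. FOXO3 KO held both the 3 highest libraries, all single-digit, and some of the lowest. Atg16l1, which places the conjugation complex on the membrane, had 14.7, 15.7, 11.7, 19.8, 17.3 and 19.3 TPM in FOXO3 KO libraries and 14.8, 11.3, 19.4, 15.1 and 17.2 TPM in WT libraries. Its relative Atg16l2 had 32.7, 29.9, 14.2, 9.73, 17.3 and 16.1 TPM in FOXO3 KO libraries and 15.2, 27.0, 18.8, 24.8 and 24.1 TPM in WT libraries. The FOXO3 KO libraries of Atg16l2 thus took both ends of the range. Atg7, which encodes the E1-like enzyme, averaged 50.7 ± 15.7 TPM in FOXO3 KO and 52.4 ± 13.3 TPM in WT, and Atg5 averaged 17.1 ± 8.16 TPM in FOXO3 KO and 15.2 ± 6.71 TPM in WT.

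Of the 5 ATG8 genes, Gabarapl1 alone had a positive fold change (median -0.08). Gabarap made up 69.7% to 79.3% of the family's TPM in FOXO3 KO and 71.9% to 75.9% in WT, and Map1lc3b, the gene of LC3B, made up 12.1% to 18.7% in FOXO3 KO and 14.6% to 18.4% in WT. Gabarap had 734, 928, 1213, 1258, 1087 and 1054 TPM in FOXO3 KO libraries and 1129, 1021, 1092, 1138 and 894 TPM in WT libraries. The family was thus dominated by its GABARAP branch in every library of either genotype. Gabarapl2 (GATE-16), on chromosome 8 from 111940703 to 111953612, had 71.5, 69.0, 71.7, 68.7, 74.7 and 67.9 TPM in FOXO3 KO libraries and 78.9, 74.2, 80.4, 85.0 and 84.2 TPM in WT libraries. All FOXO3 KO libraries but number 2 were below every WT library, and number 2 was above only WT 08. Gabarapl2 averaged 70.6 ± 2.57 TPM in FOXO3 KO and 80.5 ± 4.38 TPM in WT, a log2 fold change of -0.19 (95% interval -0.44 to 0.06), with an exact permutation p of 0.0043 and a limma FDR of 0.99. Map1lc3a, a lower LC3 gene, averaged 15.4 ± 1.86 TPM in FOXO3 KO and 16.4 ± 1.51 TPM in WT.

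Soluble cargo receptors bind ubiquitin or other tags and the ATG8 proteins at once. They had 3 positive and 2 negative fold changes (median 0.02), or 2 and 3 after quantile normalization. Sqstm1, which encodes p62, made up 61.2% to 84.0% of their TPM in FOXO3 KO and 70.1% to 81.1% in WT. Sqstm1 had 873, 998, 920.1, 857, 776 and 501 TPM in FOXO3 KO libraries and 606, 729, 1068, 602 and 618 TPM in WT libraries. WT 1 was the highest of all libraries and FOXO3 KO 3 the lowest, while 5 FOXO3 KO libraries exceeded 4 WT libraries. The log2 fold change of 0.18 ± 0.22 (SE) gave an exact permutation p of 0.41. Nbr1, a receptor related to p62, had 26, 27.4, 30.5, 34.6, 35.9 and 37.6 TPM in FOXO3 KO libraries and 30.1, 20.3, 33.5, 31.4 and 25.6 TPM in WT libraries, a log2 fold change of 0.19 ± 0.17 (SE). After quantile normalization this fold change was 0.096. The 3 highest libraries of Nbr1 were single-digit FOXO3 KO libraries and its lowest was WT 08. Optn, which encodes optineurin, averaged 73.6 ± 29.8 TPM in FOXO3 KO and 70.6 ± 20.2 TPM in WT.

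The mitophagy genes had 1 positive and 2 negative fold changes (median -0.02). Pink1, on chromosome 4 from 138313409 to 138326307, encodes the kinase that marks damaged mitochondria. Pink1 had 12.3, 13.1, 4.40, 3.53, 2.19 and 3.22 TPM in FOXO3 KO libraries and 9.99, 9.73, 7.21, 7.82 and 8.07 TPM in WT libraries. The 4 lowest libraries were FOXO3 KO libraries, and so were the 2 highest. Its log2 fold change of -0.59 ± 0.38 (SE) gave an exact permutation p of 0.18. Bnip3, a receptor on the mitochondrial membrane that hypoxia induces, had 78.0, 83.5, 125, 234, 188 and 98.9 TPM in FOXO3 KO libraries and 142, 75.5, 244, 125 and 93.6 TPM in WT libraries. Both genotypes spanned nearly the same range, and library 1 was the highest of each. Its relative Bnip3l (NIX) averaged 138 ± 51.1 TPM in FOXO3 KO and 126 ± 22.4 TPM in WT.

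Of the 4 fusion genes 3 were measured, with 1 positive and 2 negative fold changes (median -0.08), or 0 and 3 after quantile normalization. Vamp8, a lysosomal SNARE that also serves granule release, had 139, 130.1, 208, 203, 144 and 168 TPM in FOXO3 KO libraries and 230.4, 170.4, 173, 171 and 129.5 TPM in WT libraries. Its partners Snap29 and Stx17 averaged 22.6 ± 5.62 and 4.30 ± 0.60 TPM in FOXO3 KO and 24 ± 4.39 and 3.85 ± 1.03 TPM in WT. All 3 overlapped between the genotypes.

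Of the 43 members, 8 are genes that studies of mouse muscle described as FOXO3 targets. They had 5 positive and 3 negative fold changes, or 3 and 5 counting the signs of Atg12 and Ulk2 after quantile normalization, with a median of 0.06 and a range of -0.11 to 0.25. Map1lc3b had 196, 218, 230.0, 193, 227 and 209 TPM in FOXO3 KO libraries and 224, 238, 213, 239 and 228 TPM in WT libraries (log2 fold change -0.11, 95% interval -0.37 to 0.16). Gabarapl1 had 36.0, 39.4, 53.1, 54.1, 35.2 and 20.6 TPM in FOXO3 KO libraries and 44.6, 27.2, 58.3, 22.3 and 22.0 TPM in WT libraries. Both genotypes held libraries near the top and the bottom of the range of Gabarapl1. Atg12, the ubiquitin-like partner of ATG5, had 12.6, 11.6, 13.1, 15.1, 18.9 and 17.4 TPM in FOXO3 KO libraries and 13.1, 11.2, 16.6, 15.4 and 14.1 TPM in WT libraries. Atg4b, the main protease that trims ATG8 proteins, had 42.4, 45.9, 48.4, 51.2, 53.5 and 48.7 TPM in FOXO3 KO libraries and 55.0, 42.9, 41.2, 46.0 and 44.0 TPM in WT libraries. Ulk2, the sister kinase of Ulk1, had 4.25, 3.56, 4.80, 4.96, 4.24 and 4.71 TPM in FOXO3 KO libraries and 5.16, 3.61, 4.06, 4.78 and 3.48 TPM in WT libraries. With Bnip3, Pik3c3 and Becn1, already given, none of the 8 was called, and each of the 8 overlapped between the genotypes.

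Genotypes were next compared within each numbering series. Over all 11 libraries 0 members had groups that did not overlap, against 0.131% of genes. Within the two-digit libraries (3 FOXO3 KO, 2 WT) 4 of 43 members did not overlap, against 10.2% of all genes, with Ambra1 and Sqstm1 higher (6.53%) and Rb1cc1 and Gabarapl2 lower (3.65%) in FOXO3 KO. Within the single-digit libraries (3 FOXO3 KO, 3 WT) 6 of 43 did not overlap, against 11.5% of all genes, with Atg3, Atg4b and Nbr1 higher (10.3%) and Atg16l2, Gabarapl2 and Pink1 lower (1.19%). Both totals were near the share over all genes, while the 3 members lower in single-digit libraries exceeded their share of 1.19%. That excess was not tested. Gabarapl2 was the only member lower without overlap in both series, as were 22 of 12195 genes (0.180%), and 0 members were higher in both, against 79 genes (0.648%). Its log2 fold change was -0.11 ± 0.19 (SE) in two-digit and -0.24 ± 0.13 (SE) in single-digit libraries. These SEs draw in part on the spread of other genes, since limma shrinks each variance, while the permutation test uses the values of Gabarapl2 alone.

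**Figure D3:**
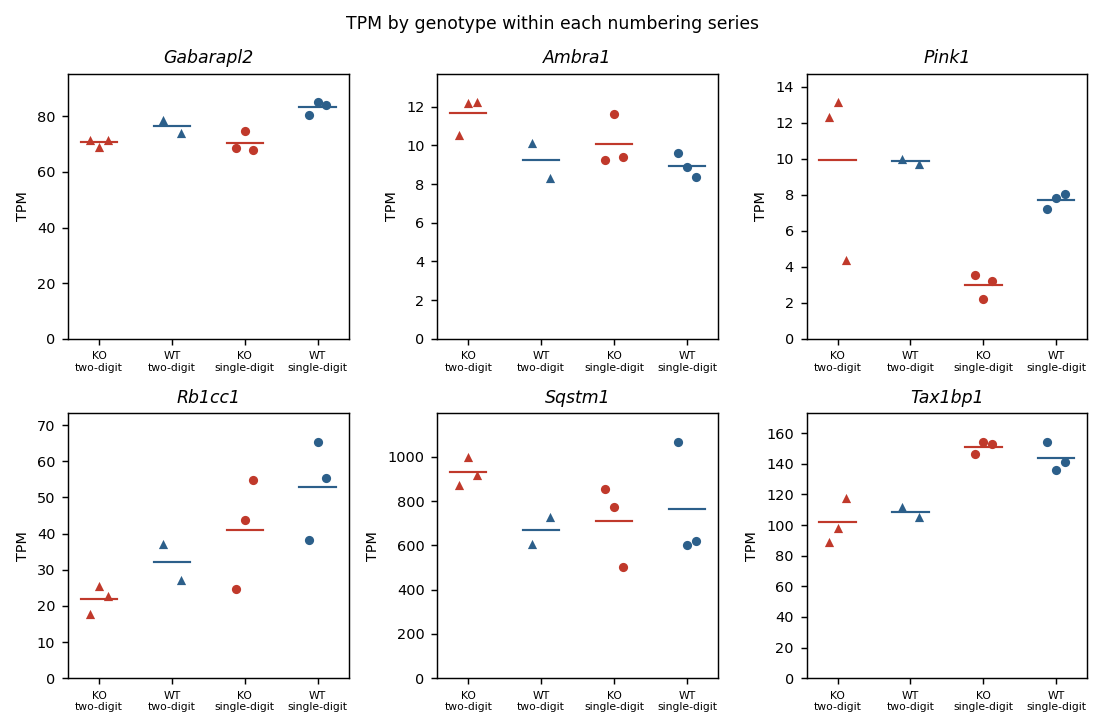
TPM of 6 members in each library, with FOXO3 KO (red) left of WT (blue) in the two-digit and then in the single-digit series, and a line at each mean. Gabarapl2 is lower in FOXO3 KO in both series, and Pink1 is separated in the single-digit series, at 2.19 to 3.53 TPM in FOXO3 KO and 7.21 to 8.07 TPM in WT.

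Pink1 showed the largest gap between the series. Its log2 fold change was -0.11 ± 0.50 (SE) in two-digit and -1.14 ± 0.21 (SE) in single-digit libraries. The single-digit value had a limma FDR of 0.70 over all genes tested, so it was not called. The interaction of 1.03 on the log2 scale had an unadjusted limma p of 0.068 and an FDR of 1.00, so a difference between the series was not shown. Across all genes limma called 0 for the interaction (0%), with a smallest FDR of 0.057, and at an unadjusted p under 0.05 it named 0 members and 254 genes (2.08%). The sign of the genotype difference was the same in both series for 26 of 43 members. This difference was positive for 17 members in two-digit and for 30 in single-digit libraries. Genotype differences of the 12195 genes tested also lay higher in single-digit libraries, with a log2 median of 0.20 against 0.035 in two-digit libraries. The members' medians were 0.12 and -0.081, each below that of the genes tested. A shift of the members apart from the other genes was not tested.

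The numbering series themselves were compared with genotype as a covariate, because their difference widens the spread within each genotype. At the same thresholds limma called 4 of 43 members, against 2436 of 12195 genes (20.0%). Calcoco1 and Pink1 were higher in two-digit libraries (8.26% of all genes) and Rb1cc1 and Atg3 were lower (11.7%). Calcoco1, a receptor for turnover of the endoplasmic reticulum, averaged 5.33 ± 1.17 TPM in two-digit and 3.00 ± 0.97 TPM in single-digit libraries. By library Calcoco1 had 6.44, 4.88, 3.89, 3.37, 2.19 and 2.16 TPM in FOXO3 KO libraries and 6.62, 4.84, 4.69, 2.44 and 3.12 TPM in WT libraries, a log2 difference of 0.70 ± 0.19 (SE, FDR = 0.026). Within each genotype every two-digit library of Calcoco1 was above every single-digit one. Pink1 averaged 9.91 ± 3.41 TPM in two-digit and 5.34 ± 2.64 TPM in single-digit libraries, with a log2 difference of 0.89 ± 0.28 (SE, FDR = 0.044). Rb1cc1 averaged 26 ± 7.14 TPM in two-digit and 47.0 ± 14.6 TPM in single-digit libraries, with a log2 difference of -0.76 ± 0.22 (SE, FDR = 0.033). Atg3 averaged 46.6 ± 7.70 TPM in two-digit and 66.1 ± 10.4 TPM in single-digit libraries, with a log2 difference of -0.51 ± 0.15 (SE, FDR = 0.033).

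These 4 calls were not firm. The count of members called was 0 without FOXO3 KO 2 and without FOXO3 KO 3, 1 without FOXO3 KO 05, FOXO3 KO 06 or WT 2, 2 without FOXO3 KO 1, WT 1 or WT 08, and 7 without WT 03. Quantile normalization left Calcoco1 and Pink1, and turned the split of all calls to 1393 higher and 1251 lower, against 1007 and 1429. The members' log2 differences were positive for 14 and negative for 29 (18 and 25 after quantile normalization), with a median of -0.13, beside -0.15 over all genes.

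**Figure D4:**
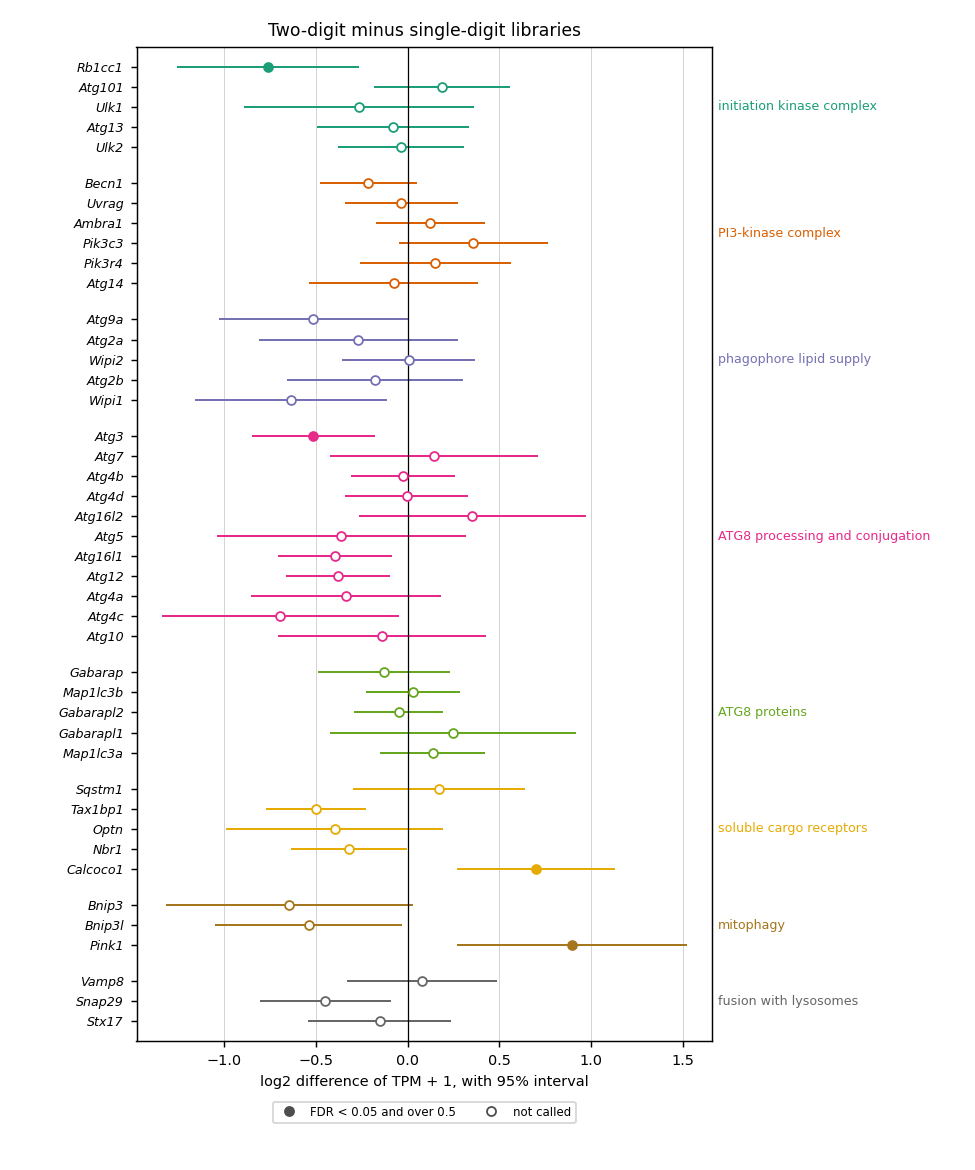
Log2 difference of TPM + 1, two-digit minus single-digit libraries with genotype as a covariate, for each member with its 95% interval (limma). Filled points mark the 4 called members, Pink1 and Calcoco1 on the right and Rb1cc1 and Atg3 on the left.

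Ranges of the series did not overlap for 3 members, against 13.0% of all genes, and Atg3, Atg12 and Tax1bp1 were all lower in two-digit libraries (6.86%) with 0 higher (6.15%). Tax1bp1, a receptor for ubiquitinated cargo, had 89.2, 98.2, 118, 147, 154 and 153 TPM in FOXO3 KO libraries and 112, 105, 154, 136 and 141 TPM in WT libraries. Its 5 two-digit libraries ended at 118 TPM and its 6 single-digit libraries began at 136 TPM. The log2 difference of -0.50 ± 0.12 (SE, FDR = 0.014) was just short of the size needed for a call. Atg12 and Atg16l1 had log2 differences of -0.38 ± 0.13 and -0.39 ± 0.14 (SE, FDR = 0.054 and 0.067) and were not called. The 5 ATG8 genes had differences between -0.13 and 0.25, with FDR of 0.47 or more.

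Several cell markers moved with the series. All 8 B cell markers were higher in two-digit libraries, all 6 T cell markers too (sum 31.7 to 55.3 TPM in two-digit and 6.19 to 10.2 TPM in single-digit libraries), and 3 of 7 macrophage markers were called lower (sum 175 to 1003 TPM in two-digit and 606 to 901 TPM in single-digit libraries). Of the epithelial markers 4 of 5 were called higher in two-digit libraries (sum 17.9 to 31.9 TPM in two-digit and 3.62 to 6.12 TPM in single-digit libraries). The other 1 was lower, at a log2 difference of -0.52 with an unadjusted limma p under 0.05, and was not called. Called higher were also 2 of 6 mast cell markers (sum 147 to 542 TPM in two-digit and 24.9 to 166 TPM in single-digit libraries). Over all genes 8.26% were called higher and 11.7% lower. Ddx3y, a gene of the Y chromosome, was above 1 TPM in 3 of 5 two-digit and 1 of 6 single-digit libraries. In two-digit libraries it was at 20.2 TPM in WT 03 and 18.3 TPM in WT 08. It was at 0.041, 0 and 18.0 TPM in FOXO3 KO 05, 06 and 09. In single-digit libraries it was at 42.9 TPM in FOXO3 KO 3, with Xist at 4.29 TPM, and at 0.26 TPM or less in WT. Sex was thus not balanced between the genotypes within either series, and its part in the differences within a series was not tested. Along the genotype, fold changes were negative for 11 of 12 PMN markers, 7 of 7 macrophage markers and 4 of 4 eosinophil markers (median -0.73, 2 at an unadjusted limma p under 0.05). They were positive for 8 of 8 B cell, 6 of 6 T cell and 6 of 6 mast cell markers, beside 8363 of 12195 over all genes. Of all these markers 0 were called. This fit left out the series, and 3 FOXO3 KO but 2 WT libraries were two-digit, so the signs may carry part of the series difference. Summed eosinophil markers were 6.77 to 25.3 TPM in FOXO3 KO and 7.21 to 43.2 TPM in WT. Their part in the values of the members was not tested.

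Other genes of the pathway were counted from lists. Of 14 upstream nutrient-sensing genes (mTOR complexes, AMPK, TSC and LKB1) 13 were tested, with 6 positive and 7 negative fold changes between FOXO3 KO and WT, a median of -0.01 and 0 called. Mlst8, an mTOR complex subunit, averaged 6.00 ± 1.97 TPM in FOXO3 KO and 3.99 ± 1.85 TPM in WT (log2 fold change 0.51, FDR = 0.99). Mtor averaged 7.04 ± 0.61 TPM in FOXO3 KO and 5.49 ± 2.08 TPM in WT (log2 fold change 0.36, FDR = 0.99). Between the series Rictor, Prkab2 and Rheb, 3 of the 13, were called lower in two-digit libraries, against 11.7% of all genes, and 0 were called higher, against 8.26%. Of 36 autophagy genes outside the 44, 32 were tested, with 22 positive and 10 negative fold changes, a median of 0.07 and 0 called. Tecpr1, which tethers autophagosomes to lysosomes, was the only gene of that list at an unadjusted p under 0.05, at 66.0 ± 9.17 TPM in FOXO3 KO and 49.5 ± 3.41 TPM in WT (log2 fold change 0.40 ± 0.14 SE, FDR = 0.99). Vps39, a subunit of the HOPS tether, averaged 18.2 ± 4.63 TPM in FOXO3 KO and 13.4 ± 3.89 TPM in WT (log2 fold change 0.42, FDR = 0.99). Between the series 1 of the 32, Rubcn, which encodes an inhibitor of the PI3-kinase complex, was called higher in two-digit libraries (log2 difference 1.05 ± 0.26 SE, FDR = 0.015), against 8.26% of all genes. Called lower were 7 of the 32, against 11.7% of all genes, namely Tbk1, Tmem41b, Vmp1, Trp53inp2, Ykt6, Sh3glb1 and Wdr45b. Tbk1, the kinase that acts on p62 and optineurin, was at 69.2 ± 11.1 TPM in two-digit and 112 ± 13.2 TPM in single-digit libraries (FDR = 0.0035).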

How the data were processed

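Processed values of 11 mouse PMN RNA-seq libraries were analysed. Per the submitters' notes STAR 2.6.1d, kallisto 0.46.0 and DESeq2 were used, with no roles given; annotation and strand are not given in the sources used here. The authors deposited TPM per library in 1 table, with 0 columns of other samples. It also holds their comparison, with a mean normalized count (a signal averaged over libraries, deposited) and log2 fold changes and their errors, deposited by the authors. A deposited score (the ratio of fold change to error) and deposited p-values are there too. Of these only the mean normalized count was used, and only for the members that spread the most. Calls used the FDR and the 0.5 of the study's methods, which give it as a fold change; its use on the log2 scale of TPM + 1 was a choice made here.

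Log2(TPM + 1) was tested with limma 3.58.1 in R 4.3.3 (mean-variance trend, Benjamini-Hochberg) over the 12195 genes averaging 1 TPM or more. Single values had exact two-sided permutation tests over 462 splits, unadjusted. The limma genotype fit was tested on simulated data, which had independent noise and no difference between the series. Members, gene lists and tests were chosen with earlier results of these data known. Values per library are printed for the 8 muscle targets, the 5 members of each direction with the smallest limma p in each comparison and the highest member of each role. Two-digit columns were assigned to a genotype by name, not to single labelled mice. Coordinates are from GENCODE M21 on GRCm38 and promoter windows from RefSeq.

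Equal numbers 1 to 3 occur in both genotypes. Deviations of same-numbered libraries correlated across genes at 0.55, 0.60 and 0.48 (0.51, 0.17 and 0.41 within the single-digit series), and those of different-numbered libraries at -0.049 to 0.51 (-0.42 to 0.089 within that series). Over all libraries equal numbers thus did not stand apart, and within the series they did. The labels name no pairs, and 3 libraries per genotype are too few to show them from the data. A fit with the numbers 1 to 3 as replicate blocks was run as an alternative, with all two-digit libraries in 1 further block. The other fits and the permutation tests did not use equal numbers as pairs. Other alternatives were quantile normalization, no filter, a minimum mean of 5 TPM, pseudocount 0.1, the series as a covariate, each series alone, Xist as a covariate, sample weights and each library left out.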

Additional observations from a re-analysis of the deposited data

Results flagged for a closer look

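In groups of 5 or 6 libraries, 26 members and Foxo3 were checked in each genotype for a library far from the others by Dixon's criterion, 54 groups in all, where chance alone marks about 1 in 20. The criterion marked 2 groups, both in WT. Atg3 was at 39.4 TPM in WT 08, against 55.3 to 61.5 TPM in the other WT libraries, a gap of 0.72 of the range. Sqstm1 was at 1068 TPM in WT 1, against 602 to 729 TPM in the other WT libraries, a gap of 0.727 of the range.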

How the results depend on the processing

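Between FOXO3 KO and WT, 0 members were called under each of the 21 alternatives. Genes called numbered 2 in single-digit libraries alone and 0 to 2 with each library left out (1 without FOXO3 KO 1 or WT 08, 2 without WT 3). For the 21 members named in that comparison, 411 of the alternatives' values kept their sign and side of the threshold and 28 changed sign. The replicate block changed no call, with 0 genes called, and turned only Bnip3, to 0.045. Bnip3 was also turned by the series as a covariate (0.045), single-digit libraries alone (0.20) and sample weights (0.16). With single libraries left out it ran from -0.20 to 0.22. Quantile normalization turned Atg12 to -0.074 and Ulk2 to -0.10. It brought the positive fold changes of Ambra1, Pik3r4, Atg13, Pik3c3 and Nbr1 nearer to 0. Those of Rb1cc1 (-0.62), Gabarapl2 (-0.23), Pink1 (-0.72), Atg9a (-0.36) and Wipi1 (-0.45) became more negative. Single-digit libraries alone turned Becn1 to 0.024, Gabarap to 0.12, Sqstm1 to -0.085 and Vamp8 to 0.12. Two-digit libraries alone turned Atg4b to -0.091, Ulk2 to -0.042 and Atg3 to -0.031. Sample weights turned Gabarap to 0.041 and Vamp8 to 0.032. With each library left out, ranges crossed 0 for Atg12 (-0.019 to 0.12), Becn1 (-0.090 to 0.022), Atg3 (-0.019 to 0.19), Gabarap (-0.088 to 0.068) and Vamp8 (-0.18 to 0.025). Others kept their sign but moved, such as Pink1 (-0.83 to -0.40), Atg9a (-0.43 to -0.13), Wipi1 (-0.44 to -0.082), Nbr1 (0.077 to 0.25), Gabarapl1 (0.095 to 0.44) and Sqstm1 (0.12 to 0.33).

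Between the series, genes called numbered 1605 at a mean of at least 5 TPM, 4413 with sample weights and 1500 to 3642 with each library left out. Members called numbered 2 after quantile normalization, 2 with no filter, 10 with sample weights and 0 to 7 with each library left out. Of the values of the 10 members named there, 129 stayed as they were, 33 lost the call, 7 gained it and 0 changed sign over 17 alternatives. For the interaction, genes called numbered 0 to 3 with each library left out. The cause of these shifts was not tested. With the depth of each library unknown, counting error was not separated from differences between mice, and the 5 two-digit libraries hold only 2 WT.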
